A study of Homo sapiens with 6 samples.

Results

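The genes described here encode the collagens and the lysyl oxidases, measured in glioblastoma cells. The lines A172, T98G and U87MG are established human lines of this aggressive brain tumour. The genes were chosen by symbol: every gene named COL, a number, A and a number, together with LOX and LOXL1 to LOXL4. On the Affymetrix Human Gene 1.0 ST array this gave 48 genes (43 collagen chains and 5 lysyl oxidases) of 18417 named genes. COL17A1 was not analysed here. Cells of each line had received either a miR-338-5p precursor, here the mimic, or a negative control and were harvested 24 hours later, with 1 array for each, so 6 arrays in all. No untransfected array was analysed here. The stated purpose was to find targets of miR-338-5p.

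Collagens are built from 3 chains wound into a rope-like helix. Prolines and lysines of the chains are hydroxylated in the endoplasmic reticulum, the chains are folded and exported, and the ends of fibrillar procollagens are cut off outside the cell. Lysyl oxidases, copper-dependent amine oxidases, then oxidise lysines of collagen and elastin, which lets neighbouring molecules form cross-links. Normal brain tissue holds little fibrillar collagen outside vessels and meninges, whereas glioblastoma can deposit it.

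The mimic acts through the seed, the bases of a microRNA that pair first with a messenger RNA, and the mature sequence is shown for that reason. It comes from RefSeq (GRCh38.p14, chr17:81125923-81125944, minus strand), with bases 2 to 8, the seed, in capitals.
hsa-miR-338-5p: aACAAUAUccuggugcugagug
Among the mature human microRNAs listed by RefSeq, 0 others had this seed.

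The second sequence is the stretch between COL4A1 and COL4A2, the genes of the main chains of basement membrane collagen IV, since their levels moved in the same order across the lines (values below). The genes start on opposite strands, 127 bases apart. The window is the plus strand of GRCh38.p14, chr13:110307034-110307333, from RefSeq, and the capitals run from the start site of COL4A1 to that of COL4A2.
COL4A2 window: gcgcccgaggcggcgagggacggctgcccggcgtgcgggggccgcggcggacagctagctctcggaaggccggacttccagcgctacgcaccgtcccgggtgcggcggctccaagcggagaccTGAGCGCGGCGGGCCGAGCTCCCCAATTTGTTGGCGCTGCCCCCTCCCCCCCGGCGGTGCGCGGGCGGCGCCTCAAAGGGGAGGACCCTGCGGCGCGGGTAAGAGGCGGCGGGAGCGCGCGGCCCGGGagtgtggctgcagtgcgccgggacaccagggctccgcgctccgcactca
Between the starts, the letters CCAAT occurred 1 time and GGGCGG 1 time, both on the plus strand, and TATAAA occurred 0 times in the window. On either strand, 34.6% of the 35116 RefSeq promoter windows held CCAAT, 45.0% held GGGCGG and 11.5% held TATAAA.

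Values are log2 expression levels from RMA, as the authors deposited them, and differences are differences of these values. Array medians lay between 5.06 and 5.14, and the arrays of a line correlated with r from 0.992 to 0.993 across all probe sets. Genes in the lowest 25% by mean over the 6 arrays (under 4.28) count as low. Of the 48 genes, 35 lay above that level. The 13 below it were COL4A3, COL4A4, COL6A5, COL6A6, COL9A1, COL10A1, COL11A1, COL14A1, COL19A1, COL21A1, COL24A1, COL25A1 and COL28A1, with levels from 2.54 to 4.90 on single arrays. Vimentin, an intermediate filament abundant in glioma cells, lay from 11.9 to 12.6 in the lines. By the F test described next, which 52.1% of all genes passed, 3 of the 8 glial and neural stem markers read differed between lines. They were vimentin, highest in U87MG, nestin, with line means of 7.22 for A172, 5.20 for T98G and 5.51 for U87MG, and AQP4. The astrocyte marker GFAP lay from 5.07 to 5.39 on the arrays, OLIG2 from 4.06 to 4.96 and SOX2 from 4.03 to 4.66, and S100B, AQP4 and FABP7 lay below 4.28 on all of them.

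The larger differences lay between the lines, not between mimic and control. Lines were compared with limma's F test, with the transfection group in the model and the 2 arrays of a line as its replicates, over all 18417 genes. The labels do not say whether the arrays of a line came from separate cultures, so the p-values measure only spread between these arrays. That spread is what remains once the mean gap between mimic and control is taken out, and the fit also borrows the spread of other genes. The lines differed at an adjusted p under 0.05 in 25 of the 48 genes (52.1%), the same share as over all genes (52.1%). Line means lay at least 1 log2 unit apart, with the F test passed, in 15 of 48 genes (31.2%), against 19.5% of all genes (19.6% by the range alone). Of these 15 genes, 11 were highest in A172, 2 in T98G and 2 in U87MG, while of all genes with such a range 32.5% were highest in A172, 30.3% in T98G and 37.2% in U87MG. U87MG was the lowest line in 10 of the 15, A172 in 3 and T98G in 2, while of all such genes 30.9% were lowest in U87MG, 36.6% in A172 and 32.4% in T98G. Over the 48 genes the range of line means had a median of 0.398, against 0.429 over all genes, so the wide differences belonged to a minority.

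Pair by pair, 13 of the 48 genes (27.1%) were higher in A172 than in T98G and 4 (8.33%) were lower, against 18.3% and 18.8% of all genes (limma, adjusted p under 0.05). A172 was higher than U87MG in 13 (27.1%) and lower in 8 (16.7%), against 20.2% and 20.8% of all genes. T98G was higher than U87MG in 10 (20.8%) and lower in 7 (14.6%), against 17.1% and 17.8% of all genes. In RNA of whole cultures, fewer cells that express a gene and less RNA per cell cannot be told apart.

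**Figure D1:**
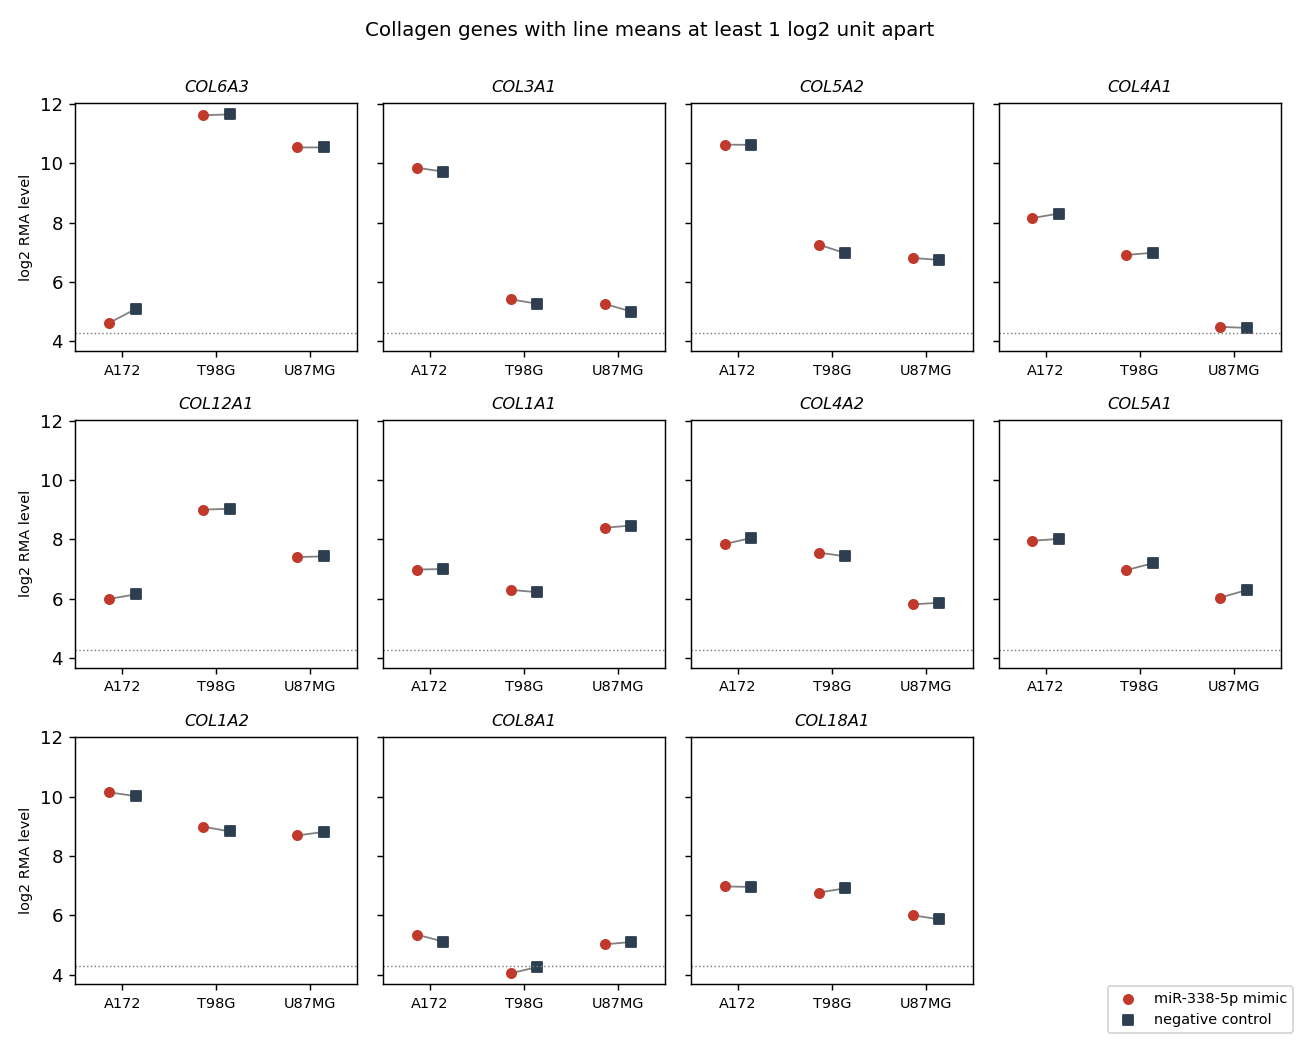
Level (log2 RMA, vertical axis) of the 11 collagen genes whose line means lay at least 1 unit apart, by line (horizontal axis), with the mimic array as a red circle left of the control array as a dark square; the dotted line is 4.28, the level below which the lowest 25% of genes lay. The mimic and control points of a line lie close together, while COL6A3 differs by 6.78 between T98G and A172 and COL3A1 by 4.65 between A172 and U87MG.

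Among the fibrillar collagens, A172 carried the highest levels of COL3A1, COL5A1, COL5A2 and COL1A2. COL3A1, the chain of collagen III, measured 9.84 on the mimic and 9.72 on the control array of A172, 5.41 and 5.26 in T98G, and 5.26 and 5.00 in U87MG. The A172 arrays stood far above the other 4, and the lowest T98G and highest U87MG array were both at 5.26. A172 exceeded T98G by 4.44 ± 0.10 (SE of the moderated fit; adjusted p = 1.96e-06 with limma) and U87MG by 4.65 ± 0.10 (1.29e-06), while T98G minus U87MG was 0.21 (0.154).

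COL5A2, a chain of collagen V, which is incorporated into collagen I fibrils, measured 10.63 with mimic and 10.62 with control in A172, 7.26 and 6.97 in T98G, and 6.81 and 6.74 in U87MG. A172 was again apart, by 3.51 ± 0.11 from T98G (adjusted p = 4.62e-06 with limma) and by 3.85 ± 0.11 from U87MG (2.77e-06). T98G and U87MG did not overlap, but their difference of 0.34 missed the threshold (0.0543). COL3A1 and COL5A2 lie next to each other on chromosome 2. The measured genes on their outer sides did not share the pattern: DIRC1 was highest in T98G, with line means of 2.73 for A172, 3.14 for T98G and 2.71 for U87MG, and WDR75 in U87MG, with 9.34, 9.24 and 9.55. Neither passed the F test (0.0695 and 0.102). Neighbours of other genes with wide differences went both ways. COPS8, beside COL6A3, was highest in T98G like COL6A3 (line means of 7.81 for A172, 8.84 for T98G and 8.03 for U87MG). DCBLD2, beside COL8A1, was highest in A172 like COL8A1 (12.33, 10.89 and 12.03 in that order). On the other sides, MLPH beside COL6A3 was highest in U87MG and CMSS1 beside COL8A1 in T98G. What neighbouring genes share was not tested.

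COL5A1, the partner chain of COL5A2, was highest in A172 and lowest in U87MG. It measured 7.95 with mimic and 8.01 with control in A172, 6.96 and 7.19 in T98G, and 6.04 and 6.29 in U87MG, with no overlap between lines. A172 exceeded T98G by 0.90 (adjusted p = 0.00078 with limma) and T98G exceeded U87MG by 0.91 (0.000761). COL5A3, the third chain of this type, lay between 5.57 and 5.84 on all arrays and the lines overlapped (adjusted p = 0.768).

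The chains of collagen I, which combine in 1 molecule, ranked the lines in different orders. COL1A1 measured 6.98 with mimic and 6.998 with control in A172, 6.30 and 6.22 in T98G, and 8.39 and 8.46 in U87MG. Here U87MG stood above both other lines, and A172 minus U87MG was -1.44 ± 0.10 (adjusted p = 8.23e-05 with limma). COL1A2 measured 10.14 and 10.02 in A172, 8.99 and 8.83 in T98G, and 8.69 and 8.81 in U87MG. For this chain A172 was highest, with A172 minus U87MG at 1.33 ± 0.11 (0.000189), while T98G and U87MG did not differ beyond their spread (0.16, 0.331). The A172 minus U87MG contrast thus had opposite signs in the chains, past the threshold in each.

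Of the other fibrillar chains, COL27A1 measured 6.60 with mimic and 6.56 with control in A172, 6.46 and 6.45 in T98G, and 6.0003 and 6.10 in U87MG. A172 exceeded U87MG by 0.53 (adjusted p = 0.00603 with limma). COL11A1 lay near the low level everywhere, at 4.53 and 4.90 in A172, 4.06 and 3.90 in T98G, and 3.85 and 4.06 in U87MG. Its F test passed (0.00692), but the 2 arrays of A172 were themselves 0.37 apart. COL2A1, COL11A2 and COL24A1 did not pass.

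In the basement membrane group, COL4A1 and COL4A2 were both highest in A172 and lowest in U87MG. COL4A1 measured 8.15 with mimic and 8.30 with control in A172, 6.91 and 6.98 in T98G, and 4.49 and 4.45 in U87MG, close to the low level. A172 exceeded U87MG by 3.76 ± 0.10 (adjusted p = 2.25e-06 with limma) and T98G exceeded U87MG by 2.48 ± 0.10 (1.05e-05). COL4A2 measured 7.84 and 8.04 in A172, 7.55 and 7.43 in T98G, and 5.81 and 5.86 in U87MG. Its differences ran in the same order and were smaller, 2.11 ± 0.11 for A172 minus U87MG (3.04e-05) and 1.66 for T98G minus U87MG (8.95e-05). The lines did not overlap in either gene. The measured genes on the outer sides of this pair, IRS2 and RAB20, were highest in T98G (line means of 5.69 and 5.55) and lower in A172 (5.37 and 4.80).

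The other collagen IV genes also lie head to head in pairs, with starts 419 bases apart for COL4A3 and COL4A4 and 380 bases apart for COL4A5 and COL4A6. COL4A3 lay from 3.97 to 4.11 and COL4A4 from 4.07 to 4.21 on all arrays, both low, and the lines did not pass the F test in either (adjusted p = 0.883 and 0.864). COL4A5 measured 4.60 with mimic and 4.58 with control in A172, 4.45 and 4.41 in T98G, and 5.02 and 4.79 in U87MG. COL4A6 measured 4.50 and 4.56 in A172, 4.56 and 4.32 in T98G, and 4.83 and 5.06 in U87MG. U87MG was highest in both, which passed the F test (0.021 and 0.0342 with limma), and T98G minus U87MG was -0.47 in COL4A5 (0.0137) and -0.51 in COL4A6 (0.0264).

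Collagen VI forms beaded filaments around cells from 3 different chains, and the lines differed mainly in the third. COL6A3 measured 4.62 with mimic and 5.09 with control in A172, 11.61 and 11.64 in T98G, and 10.53 and 10.53 in U87MG. A172 stood near the low level, far below the others, and A172 minus T98G was -6.78 ± 0.14 (adjusted p = 1.72e-06 with limma), the widest difference among the 48 genes. Since A172 lay near the lower end of the scale, the size of that difference is uncertain. T98G exceeded U87MG by 1.10 (0.00136). COL6A1, a chain of the same filaments, measured 8.19 and 8.37 in A172, 8.83 and 8.94 in T98G, and 8.82 and 8.65 in U87MG. COL6A2 measured 7.40 and 7.65 in A172, 7.78 and 7.92 in T98G, and 8.23 and 8.05 in U87MG. A172 was lowest in both, without overlap, yet by far less than in COL6A3. In COL6A1, A172 minus T98G was -0.61 (0.00787) and A172 minus U87MG -0.46 (0.0222). In COL6A2, A172 minus U87MG was -0.61 (0.00985), while A172 minus T98G, at -0.33, missed the threshold (0.0987).

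Among the collagens that sit on fibrils, COL12A1 had the widest line difference. COL12A1, which binds along collagen I fibrils, measured 5.99 with mimic and 6.14 with control in A172, 8.999 and 9.03 in T98G, and 7.40 and 7.43 in U87MG. T98G stood highest and A172 lowest, at -2.95 ± 0.10 for A172 minus T98G (adjusted p = 5.26e-06 with limma). Of the 10 measured fibril-associated collagens, 6 lay above the low level. COL12A1 and COL14A1 passed the F test, where 52.1% of all genes did. COL14A1 was low in every line (line means of 3.67 for A172, 4.03 for T98G and 3.61 for U87MG). COL18A1, the source of endostatin, measured 6.98 and 6.96 in A172, 6.77 and 6.91 in T98G, and 6.01 and 5.87 in U87MG. A172 exceeded U87MG by 1.03 (0.000522) and T98G exceeded U87MG by 0.90 (0.00105). COL15A1, the other multiplexin, ran the other way and was highest in U87MG, at 4.71 and 4.61 in A172, 4.64 and 4.43 in T98G, and 5.34 and 5.40 in U87MG (A172 minus U87MG -0.71, 0.00245).

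COL8A1, a short-chain collagen of vessel walls, measured 5.35 with mimic and 5.12 with control in A172, 4.05 and 4.26 in T98G, and 5.03 and 5.10 in U87MG. A172 exceeded T98G by 1.08 ± 0.13 (adjusted p = 0.001 with limma), and A172 and U87MG did not differ beyond their spread (0.345). COL10A1, known from hypertrophic cartilage, was low with the same order of lines (line means of 4.31 for A172, 3.67 for T98G and 4.25 for U87MG). COL8A2 just passed (0.0441). The transmembrane collagens COL13A1, COL23A1 and COL25A1, COL7A1 of anchoring fibrils, COL26A1 and COL28A1 did not pass. In all, 23 of the 48 genes did not pass, with ranges of line means from 0.03 to 0.37.

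**Figure D2:**
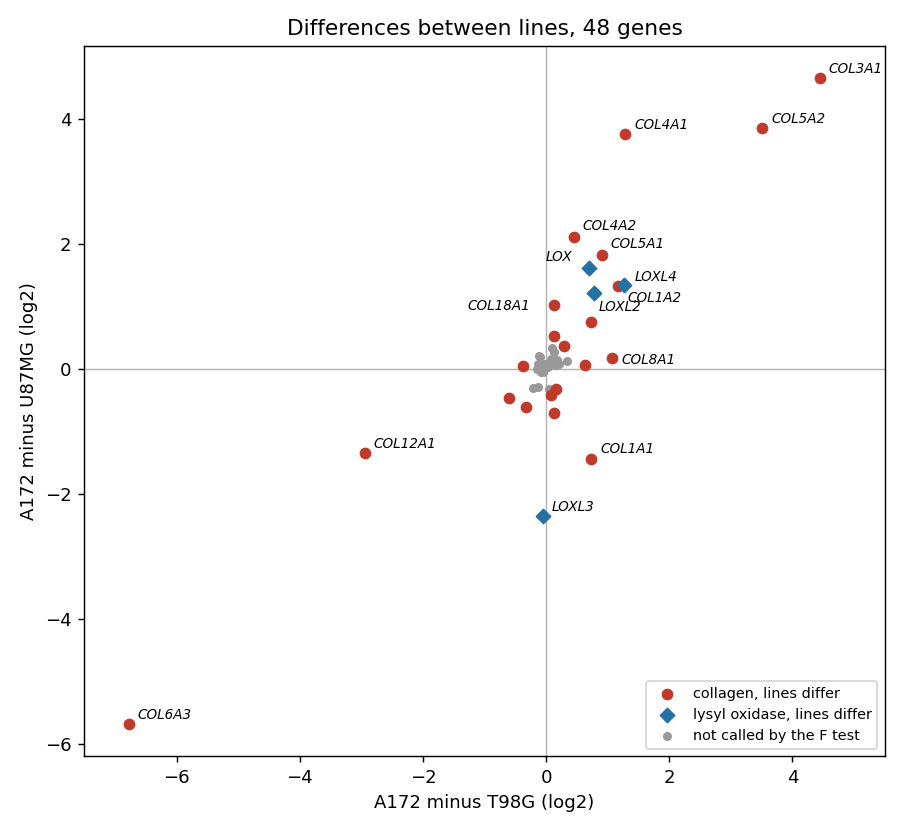
Difference A172 minus T98G (horizontal axis, log2) against A172 minus U87MG (vertical axis, log2) for the 48 genes, 1 point a gene; the axes share the A172 arrays, so points lean to the diagonal. COL3A1, COL5A2 and COL4A1 lie at the upper right, higher in A172 than in both other lines, COL6A3 and COL12A1 at the lower left, and LOXL3 and COL1A1 at the lower centre, where U87MG is highest.

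The 5 lysyl oxidases all lay above the low level. Of them, 4 passed the F test between lines, where 52.1% of all genes did, and 9321 of 13813 with the lowest 25% left out. Of these 4, LOX, LOXL2 and LOXL4 were highest in A172, and LOXL3 in U87MG. LOX, the founding enzyme, measured 10.37 with mimic and 10.33 with control in A172, 9.71 and 9.61 in T98G, and 8.79 and 8.69 in U87MG. The lines did not overlap, and A172 exceeded T98G by 0.69 ± 0.09 (adjusted p = 0.00168 with limma) and T98G exceeded U87MG by 0.92 ± 0.09 (0.000529). LOXL4 was higher in A172, at 6.12 and 6.11, than in T98G, at 4.79 and 4.91, and U87MG, at 4.79 and 4.75. A172 exceeded U87MG by 1.35 ± 0.10 (0.000111), and T98G minus U87MG was 0.08 (0.582).

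LOXL3 was highest in U87MG. It measured 4.88 with mimic and 4.77 with control in A172, 4.88 and 4.88 in T98G, and 7.06 and 7.30 in U87MG. A172 minus U87MG was -2.36 ± 0.12 (adjusted p = 2.12e-05 with limma) and A172 minus T98G -0.06 (0.754). LOXL1, which acts mainly on elastin, measured 8.91 and 9.01 in A172, 8.83 and 8.84 in T98G, and 8.75 and 8.63 in U87MG. It was the only lysyl oxidase that missed the F test (0.151), and it passed where the variance prior followed expression (0.0334).

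**Figure D3:**
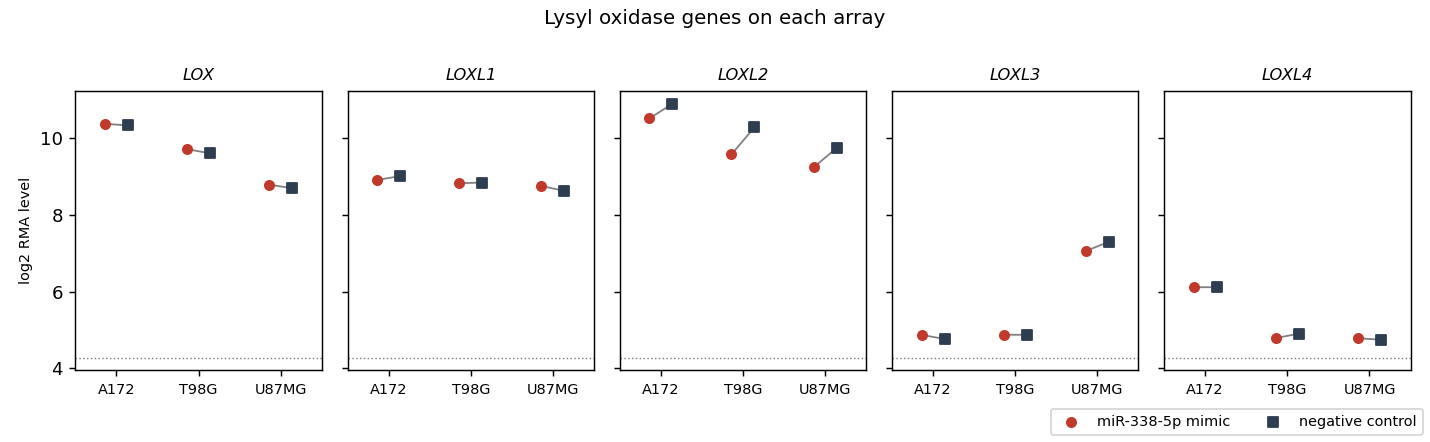
Level (log2 RMA, vertical axis) of the 5 lysyl oxidase genes by line (horizontal axis), with the mimic array as a red circle left of the control array as a dark square and 4.28 as a dotted line. In LOXL2 the mimic point lies below the control point in A172, T98G and U87MG; among the other genes the widest gap is LOXL3 in U87MG, at -0.23 for mimic minus control.

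LOXL2, a lysyl oxidase that cross-links collagen IV, was lower with the mimic than with the control in each line. It measured 10.51 with mimic, against 10.89 with control, in A172; 9.58 against 10.28 in T98G; and 9.24 against 9.74 in U87MG. The mimic array was the lower of the 2 in 3 of 3 lines, while across lines the levels of mimic and control arrays overlapped. Mimic minus control was -0.38 in A172, -0.71 in T98G and -0.51 in U87MG, with a mean of -0.53 ± 0.16 (SD, n = 3 lines), which is a level 1.44-fold lower with the mimic. The 95% interval of limma's moderated fit, which borrows the spread of other genes and had an SE of 0.088, was -0.74 to -0.32. Between lines, A172 exceeded T98G by 0.77 (adjusted p = 0.00235 with limma) and T98G exceeded U87MG by 0.44 (0.0254). The arrays of T98G and U87MG overlapped, as the T98G mimic array (9.58) lay below the U87MG control array (9.74). That test takes out the mean gap between mimic and control.

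In the test across genes, limma with the line as a block, LOXL2 had an unadjusted p of 0.000662 and an adjusted p of 0.0537, just above the threshold of 0.05. It therefore counted as not called, and 168 of the 13813 tested genes had a smaller p. Under the 10 alternatives the difference stayed between -0.61 and -0.44 and the adjusted p ranged from 0.000674 to 0.9999. LOXL2 passed in 4 of them: with the lower 50% of genes left out (0.0114), a variance prior that follows expression (0.000674), arrays centred on their medians (0.0258), and probe sets averaged per gene (0.0482). It was 0.107 with no filter. LOXL2 was known from earlier results on these arrays, so its rank is no independent evidence.

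Apart from LOXL2, which itself was not called, no tested gene of this set came near the threshold in the mimic comparison. Of the 35 tested, 0 were called, against 1.11% of all tested genes (0.789% lower and 0.319% higher with the mimic). At an unadjusted p under 0.05 there was 1, LOXL2 (2.86%), against 11.8% of all tested genes. Mean differences of the other 47 genes lay between -0.18 and 0.18, and the moderated 95% intervals of the 34 tested among them reached no further than -0.43 and 0.35. Over the 48 genes the median of the mean difference was -0.00015, against 0.0039 over all genes. The differences were lower in all 3 lines in 6 genes (12.5%) and higher in all 3 in 9 (18.8%), against 15.3% and 16.9% of all genes.

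Within a line there is no replicate and no test. In A172, 0 of the 48 genes differed by 0.5 or more between mimic and control, where 1.82% of all genes were lower and 2.06% higher by that much. In T98G and U87MG the only such gene was LOXL2 (2.08% lower and 0 higher), where 2.31% and 2.3% of all genes were lower and 1.95% and 1.61% higher. No gene of the 48 differed by 0.5 in opposite directions between lines.

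**Figure D4:**
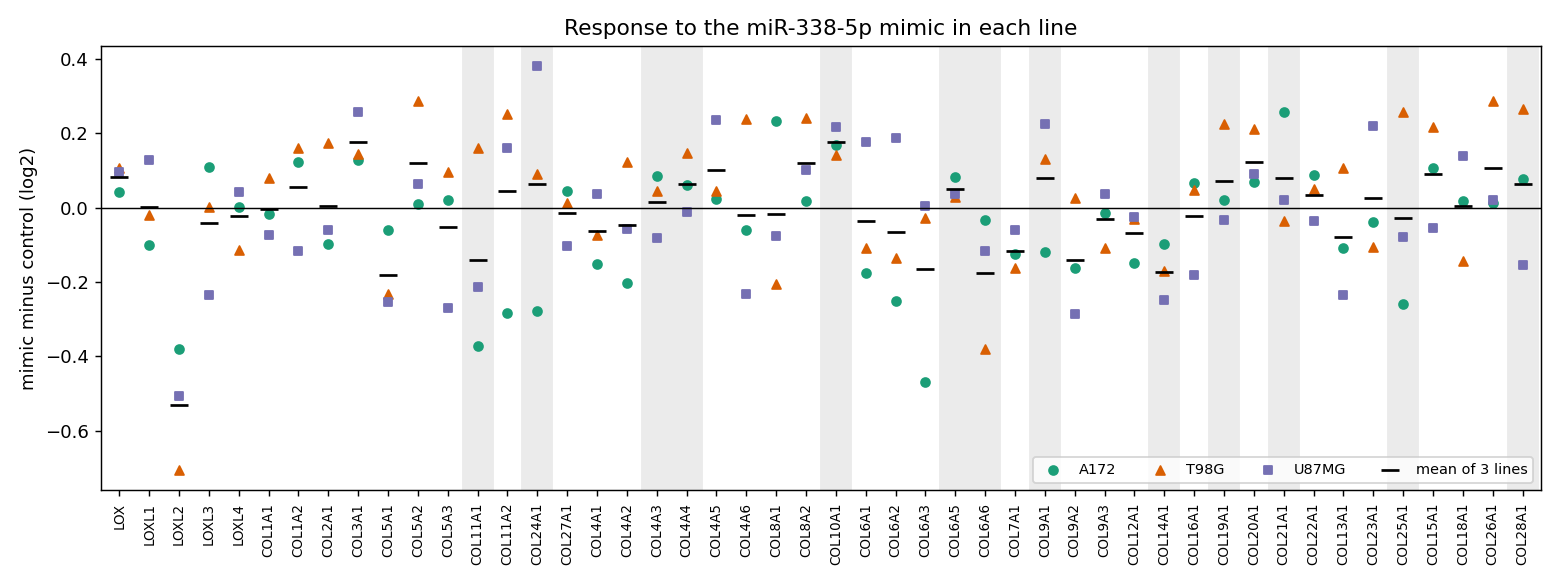
Mimic minus control (log2, vertical axis) for each of the 48 genes (horizontal axis, lysyl oxidases first), with 1 symbol a line and a black bar for the mean of the 3 lines; grey bands mark the 13 genes of low level. LOXL2 is the gene with the lowest mean, -0.53, and the means of the other genes lie between -0.18 and 0.18.

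After LOXL2, the smallest p belonged to COL3A1 and COL5A1. COL3A1 was higher with the mimic in each line, by 0.13 in A172, 0.15 in T98G and 0.26 in U87MG (mean 0.18 ± 0.07, SD, n = 3; adjusted p = 0.422 with limma). COL5A1 was lower in each, with mimic minus control at -0.06, -0.23 and -0.25 in the same order (mean -0.18 ± 0.11; 0.434). These differences are small beside the line differences of the same genes, 4.65 and 1.82.

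The next 7 genes by p differed on average by 0.10 to 0.16 in either direction. COL20A1 measured 6.04 with mimic and 5.97 with control in A172, 5.99 and 5.78 in T98G, and 5.92 and 5.83 in U87MG, so the mimic array was higher in each line (adjusted p = 0.587 with limma). COL7A1, which builds the anchoring fibrils under epithelia, was lower with mimic in each: 6.64 against 6.76 in A172, 6.75 against 6.92 in T98G, and 6.59 against 6.65 in U87MG (0.603). COL9A2 measured 5.32 against 5.48 in A172, 5.49 against 5.47 in T98G, and 5.29 against 5.57 in U87MG, so the lines split (0.595). COL8A2 measured 4.96 against 4.94 in A172, 4.77 against 4.53 in T98G, and 4.63 against 4.52 in U87MG, higher with mimic in each (0.625). COL6A3 had mimic minus control at -0.47 in A172, where its level was near the low end, -0.03 in T98G and 0.00 in U87MG (0.632). COL5A2 and COL4A5 were higher with mimic in each line, by 0.01, 0.29 and 0.06 for COL5A2 and by 0.02, 0.05 and 0.24 for COL4A5 in the order A172, T98G and U87MG (0.646 and 0.683).

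The remaining lysyl oxidases gave mean differences of 0.08 ± 0.04 for LOX, 0.00 ± 0.12 for LOXL1, -0.04 ± 0.18 for LOXL3 and -0.02 ± 0.08 for LOXL4 (SD, n = 3 lines; adjusted p from 0.722 to 0.994 with limma). LOX was higher with the mimic in 3 of 3 lines. The sign of LOXL1 and LOXL3 turned without U87MG and that of LOXL4 without T98G.

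The genes that modify, fold, cut and bind collagen were listed by role and read in the same fits. In the mimic comparison with limma, 0 of the 50 tested genes of these 5 lists were called. At an unadjusted p under 0.05 there were 6 (12%, against 11.8% of all tested genes), namely P4HA1, TRAM2, CREB3L1, FKBP7, ADAMTS14 and FBLN1. Of the 14 measured genes of proline and lysine hydroxylation and glycosylation, the smallest p belonged to P4HA1, a catalytic subunit of prolyl 4-hydroxylase, at -0.18 ± 0.08 (SD, n = 3 lines; adjusted p = 0.422 with limma). P3H2 followed at 0.20 and PLOD2 at -0.09. Of the 12 genes of folding and export, TRAM2, a translocation protein used in collagen I synthesis, was higher with the mimic in each line, by 0.36 in A172, 0.33 in T98G and 0.47 in U87MG (mean 0.39 ± 0.07; 0.0848). CREB3L1, a transcription factor that acts on collagen I genes, was lower in each, with mimic minus control at -0.16, -0.55 and -0.30 in that order (mean -0.34 ± 0.20; 0.209). FKBP7 was at 0.17 (0.418). Neither TRAM2 nor CREB3L1 passed.

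Among the 9 genes of procollagen processing the smallest p belonged to ADAMTS14 at 0.28, BMP1 at -0.13 and ADAMTS3 at -0.21 (adjusted p from 0.323 to 0.622 with limma). Among the 9 measured collagen receptors it belonged to LAIR1 at -0.20, DDR2 at 0.10 and ITGA11 at -0.11 (0.52 to 0.755). Of the 13 measured proteins associated with fibrils it belonged to FBLN1 at 0.20, TNC at 0.19 and THBS2 at 0.20 (0.35 to 0.472).

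Between lines, 41 of the 57 measured genes of the 5 lists passed the F test (71.9%, against 52.1% of all genes), and 22 had line means at least 1 unit apart (38.6%, against 19.6% of all genes). These shares are not matched for level. Of the 57 genes, 50 lay above the low level. With the lowest 25% of genes left out, 9321 of 13813 genes passed, a larger share than over all genes. The 14 hydroxylation and glycosylation genes all lay above the low level. Of them 12 passed, 6 highest in T98G, 5 in A172 and 1 in U87MG, and 3 had line means at least 1 unit apart. P3H2, a prolyl 3-hydroxylase, had line means of 6.87 for A172, 10.09 for T98G and 6.86 for U87MG (adjusted p = 6.07e-06 with limma). PLOD2, the lysyl hydroxylase of the chain ends, had 10.03 in A172, 11.55 in T98G and 10.25 in U87MG. P3H1, another prolyl 3-hydroxylase, had 7.48, 8.35 and 7.30 in that order. P4HA1, P4HA2 and PLOD1 were also highest in T98G, COLGALT1, CRTAP, P3H4, P4HA3 and PLOD3 in A172, and P3H3 in U87MG.

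In folding and export 8 of 12 passed the F test, where 52.1% of all genes did, and 4 had a range of at least 1, where 19.6% of all genes did. All 12 lay above the low level, and 9321 of 13813 genes passed with the lowest 25% left out. FKBP7 and FKBP14, prolyl isomerases of the endoplasmic reticulum, were highest in T98G: FKBP7 had line means of 5.49 for A172, 8.84 for T98G and 6.81 for U87MG, and FKBP14 had 6.61, 8.78 and 7.77. SERPINH1, the collagen chaperone HSP47, was highest in A172 and lowest in U87MG, at 9.86 in A172, 9.34 in T98G and 8.62 in U87MG. MIA3 and SEC24D were highest in T98G, and CREB3L1, TMEM131 and TRAM2 in A172.

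In procollagen processing 6 of 9 passed and 3 had a range of at least 1, beside the same shares of all genes (52.1% and 19.6%). BMP1, the enzyme that removes the carboxyl ends of fibrillar procollagens, had line means of 8.40 for A172, 6.94 for T98G and 6.80 for U87MG. Its enhancer PCOLCE2 had 5.12 for A172, 4.11 for T98G and 6.49 for U87MG, and FURIN had 7.76, 6.76 and 6.88. PCOLCE and ADAMTS2 were highest in T98G, and ADAMTS3 in U87MG.

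Of the collagen receptors 6 of 9 passed (52.1% of all genes) and 4 had a range of at least 1 (19.6%). DDR2, a receptor tyrosine kinase for fibrillar collagen, had line means of 9.16 for A172, 7.30 for T98G and 8.74 for U87MG. ITGA2, an integrin chain for collagen, had 8.23, 8.48 and 9.80, and MRC2, an endocytic collagen receptor, had 8.17, 7.56 and 6.52. DDR1 was highest in A172, ITGA11 in T98G and ITGB1 in U87MG.

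Of the fibril-associated proteins 9 of 13 passed (52.1% of all genes), with 8 of the 13 at least 1 unit apart (19.6% of all genes). TNC, the matrix glycoprotein tenascin C, had line means of 4.14 for A172, 6.74 for T98G and 10.53 for U87MG. THBS2 had 10.18, 4.94 and 7.75, and FBLN1 had 8.27, 5.79 and 5.06 in that order. SPARC, POSTN and DCN were highest in A172, THBS1 in T98G, and FN1 and LUM in U87MG. DCN stayed under 4.28 on every array, as did the fibril proteins ASPN and FMOD.

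Markers of other cell types were read beside these differences. The mean level over 8 mesenchymal and pericyte markers was 6.98 for A172, 5.39 for T98G and 5.33 for U87MG. The F test passed in 7 of the 8, where it passed in 52.1% of all genes. Of the 7, 4 were highest in A172 (CSPG4, RGS5, TAGLN and THY1), 1 in T98G (PDGFRB) and 2 in U87MG (ACTA2 and PDGFRA). Over 5 epithelial markers the mean level was 7.12, 5.60 and 5.56 in the same order. Of these 5 markers, 4 passed, beside the same 52.1% of all genes. KRT8, KRT18 and KRT19 were highest in A172 and EPCAM in U87MG, while CDH1 lay from 3.88 to 4.35 on the arrays. Keratin 8 had the widest difference of the epithelial list, with line means of 10.45 for A172, 5.52 for T98G and 5.01 for U87MG.

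Over 6 endothelial markers the mean level was 4.58 for A172, 4.11 for T98G and 4.61 for U87MG. The F test passed in 4 of them (52.1% of all genes), and 2, TEK and KDR, had line means at least 1 unit apart (19.6% of all genes). TEK had line means of 6.27 for A172, 4.005 for T98G and 4.27 for U87MG, and KDR had 3.61, 3.29 and 5.80. In each of these genes the lines other than the highest had means under 4.28, the low level. CLDN5 was also highest in A172 and PECAM1 in U87MG, and VWF lay from 3.70 to 4.11 on the arrays. Over 6 leukocyte markers the mean level was 4.74, 4.43 and 4.68, and 3 passed, beside the same 52.1% of all genes. CD68, a lysosomal protein, was highest in U87MG, with line means of 8.36, 8.34 and 10.35 in the same order. PTPRC, which defines leukocytes, measured 4.35 and 4.003 in A172 and at most 2.81 on the other arrays. CD14 was highest in A172, and CD3E lay from 3.28 to 3.66 on the arrays. The part of these marker genes in the line differences was not tested.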

How the data were processed

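The authors deposited log2 expression values for 33297 probe sets on 6 arrays, made by RMA with the package oligo in R 3.0.1, per the submitters' processing notes. RMA includes quantile normalization, so a shift of most genes in 1 direction would be largely removed. No filter or batch is named in the sources used here.

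Probe sets with 1 symbol in the platform annotation (19460) were named through RefSeq of GRCh38.p14 (19429 matched by gene identifier), which gave 18417 genes. The brightest probe set was kept for genes with several, which applied to COL11A2 alone of the 48 genes. Tests used limma 3.58.1 in R 4.3.3 (two-sided, Benjamini-Hochberg over all genes tested, threshold 0.05). Mimic was compared with control with the line as a block, over the 13813 genes above the lowest 25%, with 2 residual and 4.56 prior degrees of freedom. Lines were compared over all genes, since a mean filter would keep low genes through 1 high line. Arrays are paired by line, as titled in the labels. Deviations from the group means correlated within a line at r of 0.928 to 0.938. Since the lines differ, this does not tell whether the cultures were also paired. Precision is limited by the number of arrays.

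Members and gene lists were chosen with earlier results of these data known. Genes named were the lysyl oxidases, the 10 smallest p in the mimic fit, the 12 widest line differences, chains of 1 protein or neighbouring genes, and in each list the 3 smallest p per fit and those called. Others named, such as COL8A1, COL18A1 and COL15A1, were chosen after their values were seen. Alternatives covered filter, block, variance prior, normalization, probe sets and arrays left out.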

Additional observations from a re-analysis of the deposited data

How the results depend on the processing

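The count of called genes in the mimic comparison depended on the settings. Of the 35 genes of this set that were tested, 0 were called. LOXL2 alone was called with the lower 50% of genes left out, where 21 were tested. It was also the only 1 with a variance prior that follows expression, with arrays centred on their medians and with probe sets averaged. Over all genes 153 were called, against 60 with no filter, 360 with the lower 50% left out, 471 with the other variance prior and 236 with centred arrays. Without the line as a replicate block limma called 0 genes, with 127 at an unadjusted p under 0.05. Leaving out both arrays of a line gave 0 to 116 genes over all genes, with 0 without U87MG (1356 at an unadjusted p under 0.05) and 65 without A172. Of this set, 35 or 36 genes were tested in these fits and 0 were called each time. These fits have fewer residual degrees of freedom. Centring shifted the mean difference of each gene by the same -0.0163, so the sign of 4 of the 48, all nearer to 0 than that, turned by construction (LOXL1, at -0.0134, COL2A1, COL4A3 and COL18A1). Repeated quantile normalization turned 1, COL2A1. Leaving out a line turned 9 genes without A172, 8 without T98G and 12 without U87MG, none with a mean difference larger than 0.0805 in size. Among them LOXL1 ranged from -0.0600 to 0.0548, LOXL3 from -0.116 to 0.0558 and LOXL4 from -0.0553 to 0.0220. The cause was not tested. With centred arrays 0 genes, instead of LOXL2 alone, reached 0.5 in U87MG. For the lines, 23 to 26 genes were called under other settings and 20 to 24 with any 1 array left out, against 25. The 12 widest differences passed under each of these alternatives with the same line highest. With 2 arrays per line and 3 per group, small differences of weakly expressed chains could not be resolved.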
